A study of Mus musculus with 12 samples.

Results

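The genes described here are 10 enzymes and helper proteins that make, or break down, prostaglandins and leukotrienes. They were chosen by symbol from the 54833 genes of the deposited table, and each of the 10 symbols matched 1 row. The table comes from 12 RNA-seq libraries of the caudate putamen on the injected side of male C57BL/6 wild-type mice, with 3 libraries in each of 4 groups, sham and ICH in young mice and sham and ICH in aged mice. Intracerebral hemorrhage (ICH) was induced by an injection of type IV collagenase, an enzyme that digests the vessel wall, and sham mice received saline. Tissue was taken 24 h later, after perfusion, and carries the label perihematomal in all groups, sham included. The young groups had an age of 8 to 10 weeks and the aged groups of 20 to 22 months. Each library pooled 2 or 3 mice, so the spread between libraries is a spread between pools.

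Prostaglandins and leukotrienes are short-lived lipid signals made from arachidonic acid, which phospholipases release from membranes. The cyclooxygenases Ptgs1 and Ptgs2 (COX-1 and COX-2) make prostaglandin H2, from which Ptges makes prostaglandin E2 and Ptgds and Hpgds make prostaglandin D2, while Hpgd inactivates prostaglandins. Alox5, helped by the membrane protein Alox5ap (FLAP), makes leukotriene A4, which Ltc4s couples to glutathione, and Alox12 oxidizes arachidonic acid at another carbon. In brain, Ptgds is abundant in oligodendrocytes and the meninges, Ptgs2 is found in neurons and rises with inflammation, and Alox5, Alox5ap and Hpgds are best known from myeloid cells.

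The stretches of DNA before the start sites of Ptgs2, Ptges, Hpgd and Alox5 are shown because these genes rose after ICH at 1 or both ages. Promoters were taken from RefSeq (GRCm38.p6), where 9 of the 10 symbols matched and Alox5ap did not. Each line gives the last 140 bases before the RefSeq start, 5′ to 3′ on the strand of the gene, and capitals mark matches to the motifs named after the lines. In the order of the lines, the positions are chr1:150099891-150100030 (plus strand), chr2:30903298-30903437 (minus strand), chr8:56294412-56294551 (plus strand) and chr6:116461179-116461318 (minus strand).
Ptgs2: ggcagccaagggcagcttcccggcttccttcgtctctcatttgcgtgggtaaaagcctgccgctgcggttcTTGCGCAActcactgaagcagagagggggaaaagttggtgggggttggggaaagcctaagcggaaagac
Ptges: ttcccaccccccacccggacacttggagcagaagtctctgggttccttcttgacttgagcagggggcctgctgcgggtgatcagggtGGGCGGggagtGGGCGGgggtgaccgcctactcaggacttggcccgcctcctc
Hpgd: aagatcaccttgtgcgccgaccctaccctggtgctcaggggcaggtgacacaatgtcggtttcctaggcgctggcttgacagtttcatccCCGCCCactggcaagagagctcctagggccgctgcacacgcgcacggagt
Alox5: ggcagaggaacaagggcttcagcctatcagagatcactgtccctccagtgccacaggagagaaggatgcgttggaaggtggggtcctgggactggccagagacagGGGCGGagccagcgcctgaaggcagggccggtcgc
The motifs were looked for in 250 bases before the start and were chosen with the sequences in view. Ptgs2 held TTGCGCAA, a C/EBP site, beginning 69 bases before its start, and 0.17% of the 27025 promoters held these letters on either strand. GC boxes (GGGCGG) were matched 2 times in Ptges and 1 time each in Ptgs2, Hpgd and Alox5, that of Ptgs2 beginning 170 bases before its start and so outside the bases shown. Of all promoters 32.9% held this motif on either strand. In Hpgd it lies on the other strand and reads CCGCCC. The RefSeq start of Ptges lies inside a longer GENCODE gene model, and the other 3 windows end at or before the start of the gene model. A TATA box (TATAAA, 8.12% of promoters, strand of the gene only), the core of a cyclic AMP response element (TGACGT, 6.56%), an E-box (CACGTG, 6.05%) and an AP-1 site (TGANTCA, 6.87%) were not matched in these 4 windows. Bases after the RefSeq start were not searched, so motifs that lie there would be missed. The match of a motif is a description of the letters, and no binding was measured.

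Between 28410896 and 37785160 reads were counted on genes in a library, and 21495 genes passed the filter on low counts, among them all 10 of the genes described. Levels between libraries are given as CPM, counts scaled to a common library size after normalization for library composition, and levels between genes as the deposited FPKM, which are divided by transcript length. The 10 markers of striatal projection neurons summed to 111.1 to 823 FPKM in the 12 libraries, lowest in aged ICH library 1. Each library thus held RNA of these neurons, in differing amounts. The libraries differed in their markers of the choroid plexus, which lies in the ventricle beside the caudate putamen. These summed to 3221 FPKM in young ICH library 3, 1595 FPKM in aged ICH library 2 and 1247 FPKM in aged ICH library 1, and to at most 349 FPKM in the other 9 libraries. The calls after ICH are therefore also given without these 3 libraries, which leaves 1 aged ICH library. In bulk tissue, fewer cells of a type and less RNA per cell cannot be told apart.

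Ptgds was by far the highest of the 10 genes, and Alox12 the lowest. Ptgds held 116 to 285 FPKM and 74.8 to 93.6% of the summed FPKM of the 10 genes in each library. In young sham libraries the order after Ptgds was Ptgs1 (5.02 ± 0.289 FPKM), Ptgs2 (3.78 ± 0.532 FPKM), Hpgd (3.6 ± 0.658 FPKM), Hpgds (2.22 ± 0.156 FPKM), Alox5ap (1.84 ± 0.202 FPKM), Ptges (1.57 ± 0.343 FPKM), Ltc4s (1.36 ± 0.205 FPKM), Alox5 (0.542 ± 0.151 FPKM) and Alox12 (0.098 ± 0.0323 FPKM; SD, n = 3 each). Neighbours whose libraries overlapped were Ptgs2 with Hpgd, Hpgds with Alox5ap, Alox5ap with Ptges, and Ptges with Ltc4s, and the other neighbours were separate. Ptges stood seventh in this order in young sham libraries, sixth in aged sham libraries and in the third place in both ICH groups, at 5.85 ± 0.936 FPKM in young ICH and 7.29 ± 2.11 FPKM in aged ICH. In aged ICH libraries the range of Ptges overlapped those of its neighbours Ptgs2 (7.7 ± 1.31 FPKM) and Ptgs1 (6.04 ± 0.248 FPKM). Ltc4s in young ICH (0.925 to 4.79 FPKM) overlapped both Hpgds above it and Alox5 below it. The plot of FPKM by gene shows these levels.

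**Figure D1:**
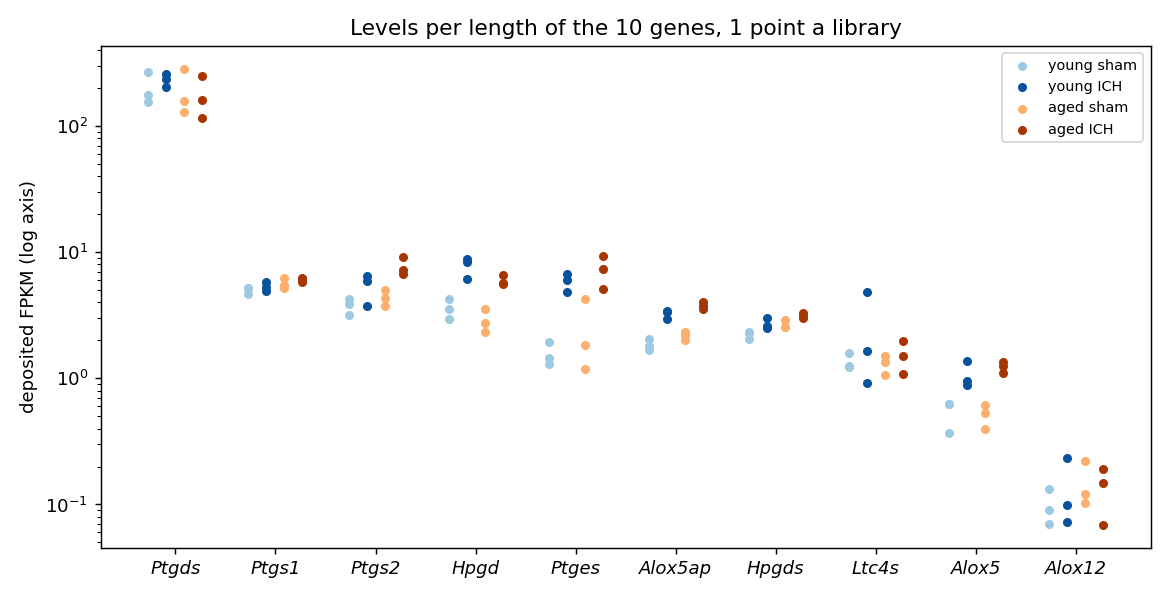
Deposited FPKM (log axis) of the 10 genes, 1 point a library, coloured by group and ordered by the mean over the 12 libraries. Ptgds lies above 100 FPKM in every library, Alox12 below 1 FPKM, and the points of Ptges, Hpgd, Alox5 and Alox5ap lie higher in the ICH groups than in the sham groups.

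The first question was which of these genes responded to ICH at each age. In the young ICH vs. young sham comparison, 4 of the 10 genes rose and 0 fell at an adjusted *P* under 0.05 in edgeR's quasi-likelihood test, where 9.89% of the 21495 genes tested rose and 9.23% fell. The 4 were Ptges, Hpgd, Alox5 and Alox5ap. In the aged ICH vs. aged sham comparison, the same 4 and Ptgs2 rose and 0 fell, where 7.00% of all genes rose and 6.15% fell. The median log2FC of the 10 genes was 0.57 in young and 0.45 in aged mice, beside 0.022 and 0.0018 over all genes tested. By the fold criterion of FC above 1.5 with an unadjusted *P* under 0.05, the same 4 and the same 5 genes were upregulated, beside 8.66% and 7.24% of all genes. Without the 3 libraries rich in choroid plexus markers, 3 of the 10 genes passed in young mice and 0 in aged mice, where 1 aged ICH library was left. Leaving out aged ICH library 1 alone left 1 of the 5 calls in aged mice, and leaving out aged sham library 1 or 2 left 3. All ICH libraries lay above all sham libraries in 5 of the 10 genes in young mice and in 5 in aged mice, as they did in 18.5% and 17.8% of all genes.

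**Figure D2:**
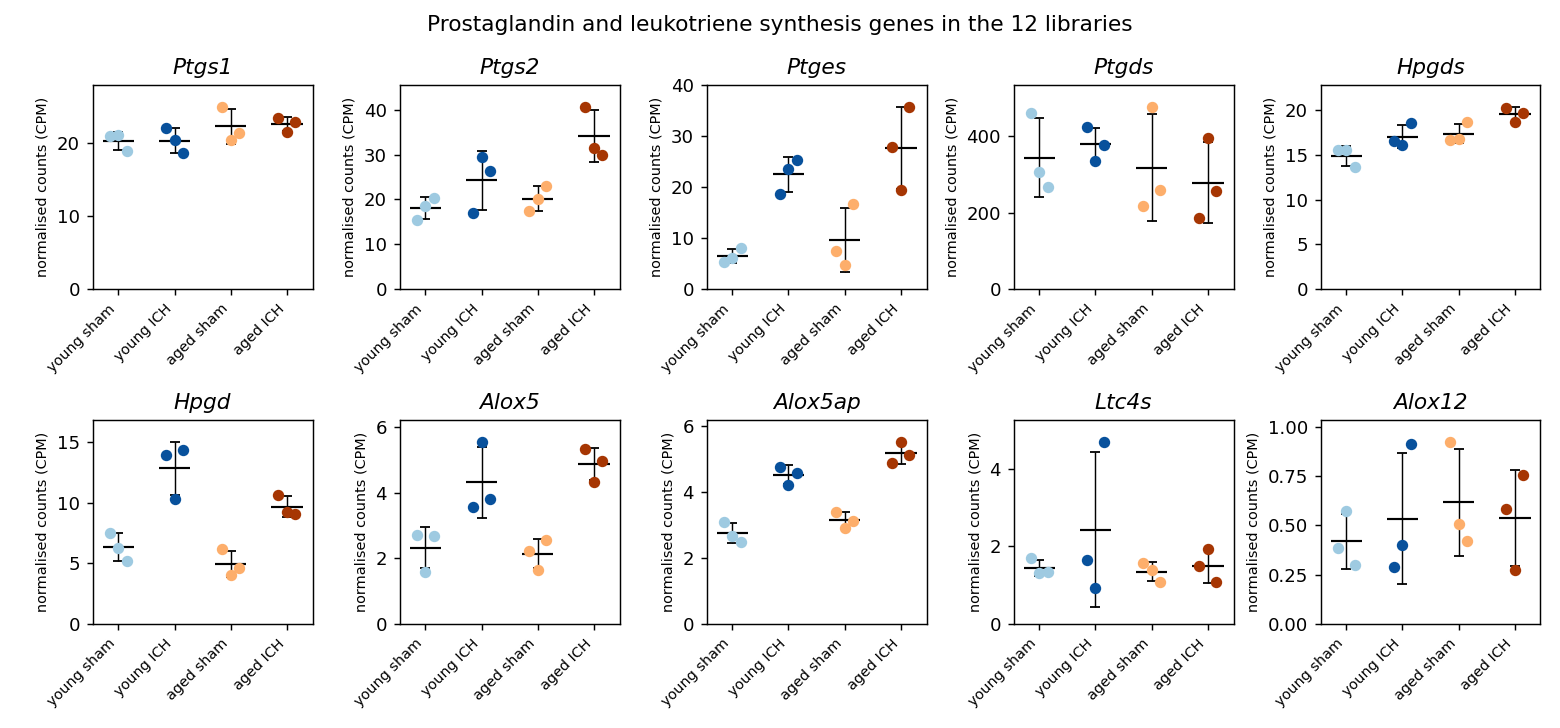
Normalised counts (CPM, linear axes from 0) of each gene in the 12 libraries, with the mean (bar) and SD (whiskers) of each group of 3. Ptges, Hpgd, Alox5 and Alox5ap have all ICH points above all sham points of the same age, while Ptgs1, Ptgds and Alox12 do not.

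Of the cyclooxygenases, Ptgs2 rose in aged mice and Ptgs1 did not pass the test at either age. Ptgs2 (ENSMUSG00000032487, chr1:150100031-150108227, plus strand) is the inducible cyclooxygenase. It was at 15.3, 18.6 and 20.3 CPM in young sham libraries and at 16.9, 29.5 and 26.3 CPM in young ICH libraries. In aged mice it was at 17.5, 20.1 and 23 CPM after sham and at 40.7, 31.6 and 29.9 CPM after ICH. All 3 aged ICH libraries lay above all aged sham libraries, whereas young ICH library 1 lay within the young sham range. The log2FC was 0.75 in aged mice (SE 0.196, adjusted *P* = 0.0277, edgeR) and 0.42 in young mice (SE 0.196, adjusted *P* = 0.155, edgeR). Without young ICH library 1 the young log2FC was 0.63 and passed the test (adjusted *P* = 0.0272, edgeR). The aged result was lost without aged sham library 1 (adjusted *P* = 0.107), aged sham library 2 (adjusted *P* = 0.0823) or aged ICH library 1 (adjusted *P* = 0.124), and was 0.57 without the choroid plexus libraries (adjusted *P* = 0.274, edgeR for each). Ptgs2 is also an early gene of neuronal activity. Of all genes tested, 9.89% rose and 9.23% fell in young mice, and 7.00% rose and 6.15% fell in aged mice. Of 11 other early genes of neuronal activity, 4 fell and 0 rose in young ICH mice. In aged ICH mice 0 of the 11 passed the test, and by the fold criterion 1 was higher and 1 lower. Their summed level was 140.5 to 320 FPKM in young sham, 123 to 152 FPKM in young ICH, 147 to 158 FPKM in aged sham and 127 to 184 FPKM in aged ICH libraries, and their part in the result was not tested.

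Ptgs1 (ENSMUSG00000047250, chr2:36230426-36252272, plus strand), the constitutive cyclooxygenase, had nearly level values. It ranged from 18.9 to 21.2 CPM in young sham, 18.6 to 22.1 CPM in young ICH, 20.5 to 25 CPM in aged sham and 21.6 to 23.5 CPM in aged ICH libraries, and the sham and ICH ranges overlapped at each age. The log2FC after ICH was 0.0026 in young mice (SE 0.0929) and 0.022 in aged mice (SE 0.0926), with adjusted *P* of 0.988 and 0.904 in edgeR. On the scale of FPKM, the ratio of Ptgs2 to Ptgs1 was 0.619, 0.746 and 0.909 as the lowest, median and highest of young sham libraries and 0.65, 1.2 and 1.22 of young ICH libraries. In aged mice it was 0.592, 0.833 and 0.908 after sham and 1.11, 1.24 and 1.47 after ICH, where the groups did not overlap. Over both ages the ratio was 1.47-fold higher after ICH, a difference of 0.56 on the log2 scale (two-sided exact permutation test within ages, *P* = 0.03, where 0.005 is the smallest possible, and *P* = 0.18 after adjustment over 6 such tests). The result thus did not pass the adjusted test, and the difference was 0.39 without the choroid plexus libraries (exact permutation test, adjusted *P* = 0.4). Between aged and young mice the log2 ratio differed by 0.2 (exact permutation test, *P* = 0.39, adjusted *P* = 0.5).

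Ptges had the largest change of the 10 genes at both ages. Ptges (ENSMUSG00000050737, chr2:30889471-30929863, minus strand) is the inducible prostaglandin E synthase, which acts downstream of Ptgs2. It was at 5.33, 6 and 7.99 CPM in young sham libraries and at 18.7, 23.6 and 25.4 CPM in young ICH libraries. In aged mice it was at 7.45, 4.75 and 16.6 CPM after sham and at 27.9, 19.5 and 35.7 CPM after ICH. The groups did not overlap at either age, although aged sham library 3 lay far above the other sham libraries. Ptges rose 3.51-fold in young mice (log2FC 1.81, SE 0.381, adjusted *P* = 0.0083, edgeR) and 2.87-fold in aged mice (log2FC 1.52, SE 0.372, adjusted *P* = 0.0226, edgeR). Without aged sham library 3 the aged log2FC was 2.18, still past the threshold. It lost the threshold without aged sham library 1 (adjusted *P* = 0.0888), aged sham library 2 (adjusted *P* = 0.0607), aged ICH library 1 (adjusted *P* = 0.0738) or aged ICH library 3 (adjusted *P* = 0.0806), in a fit to the aged groups alone (adjusted *P* = 0.0603) and without the choroid plexus libraries (log2FC 1.89, adjusted *P* = 0.0781, edgeR for each). Aged sham library 3 also had the highest sums among sham libraries of neutrophil markers (18.8 FPKM) and of infiltrating monocyte markers (58.4 FPKM), and their part in the level of Ptges was not tested.

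Neither gene for prostaglandin D2 synthesis passed the test after ICH at either age. Ptgds (ENSMUSG00000015090, chr2:25466709-25470046, minus strand), the lipocalin-type enzyme that is also a carrier protein of the cerebrospinal fluid, was at 462, 306 and 266 CPM in young sham and at 424, 336 and 377 CPM in young ICH libraries. In aged mice it was at 216, 478 and 259 CPM after sham and at 185, 395 and 256 CPM after ICH. Libraries of every group overlapped, and at each age the SD of either group was larger than the difference between the sham and ICH means. The log2FC was 0.14 in young mice (SE 0.321, adjusted *P* = 0.803) and −0.19 in aged mice (SE 0.322, adjusted *P* = 0.741, edgeR for each). The 3 libraries rich in choroid plexus markers held 377, 395 and 185 CPM of Ptgds, which spans most of the range of all libraries. Markers of leptomeningeal fibroblasts, which make Ptgds, summed to 10.4 to 18.2 FPKM in young sham, 21.5 to 30.4 FPKM in young ICH, 11.1 to 19.2 FPKM in aged sham and 18.3 to 23.6 FPKM in aged ICH libraries, and 2 of these 10 markers rose in young and 1 in aged mice. Of the 10 oligodendrocyte markers, 0 passed in young mice and 4 fell in aged mice, with sums of 770 to 1317 FPKM in young sham, 949 to 1324 FPKM in young ICH, 858 to 1099 FPKM in aged sham and 734 to 848 FPKM in aged ICH libraries. Beside these counts, 9.89% of all genes tested rose and 9.23% fell in young mice, and 7.00% rose and 6.15% fell in aged mice. The part of fibroblasts and oligodendrocytes in the level of Ptgds was not tested.

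Hpgds (ENSMUSG00000029919, chr6:65117293-65144908, minus strand), the hematopoietic-type prostaglandin D synthase, was at 15.5, 15.5 and 13.6 CPM in young sham and at 16.5, 16.1 and 18.5 CPM in young ICH libraries. After sham surgery aged libraries held 16.7, 16.8 and 18.6 CPM, and after ICH 20.3, 18.6 and 19.7 CPM. Young ICH lay above young sham without overlap, and aged ICH and aged sham met at 18.6 CPM. The log2FC was 0.2 in young mice (SE 0.0867, adjusted *P* = 0.137) and 0.17 in aged mice (SE 0.0862, adjusted *P* = 0.221, edgeR for each). With library sizes as the only scaling, the young log2FC was 0.29 and passed (adjusted *P* = 0.0456, edgeR). The 10 markers of homeostatic microglia, in which Hpgds is known to be found, summed to 120.2 to 143 FPKM in young sham, 130 to 163 FPKM in young ICH, 133 to 142 FPKM in aged sham and 136 to 160.4 FPKM in aged ICH libraries. Of these markers 0 rose and 2 fell in young mice, where 9.89% of all genes rose and 9.23% fell. In aged mice 1 rose and 2 fell, where 7.00% of all genes rose and 6.15% fell. The log2 FPKM ratio of Hpgds to Ptgds differed by 0.18 between ICH and sham (exact permutation test, *P* = 0.5, adjusted *P* = 0.5). Between aged and young libraries it differed by 0.55 (exact permutation test, *P* = 0.07, adjusted *P* = 0.21).

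Hpgd rose about 2-fold at both ages. Hpgd (ENSMUSG00000031613, chr8:56294585-56321043, plus strand) oxidizes the 15-hydroxyl group of prostaglandins and is the main step of their inactivation. It was at 7.52, 6.28 and 5.18 CPM in young sham libraries and at 13.9, 10.3 and 14.3 CPM in young ICH libraries. The aged sham libraries held 6.16, 4.01 and 4.64 CPM, and the aged ICH libraries 10.7, 9.28 and 9.11 CPM. At both ages every ICH library was above every sham library. The rise was 2.03-fold in young mice (log2FC 1.02, SE 0.187, adjusted *P* = 0.00449, edgeR) and 1.96-fold in aged mice (log2FC 0.97, SE 0.19, adjusted *P* = 0.00997, edgeR). The aged result just missed the threshold without aged ICH library 1 (log2FC 0.9, adjusted *P* = 0.0501) and missed it without the choroid plexus libraries (log2FC 0.89, adjusted *P* = 0.116, edgeR for each).

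On the leukotriene side, Alox5 and its helper Alox5ap rose at both ages, from low levels. Alox5 (ENSMUSG00000025701, chr6:116410077-116461178, minus strand) was at 2.71, 1.59 and 2.67 CPM in young sham libraries and at 3.57, 5.56 and 3.81 CPM in young ICH libraries. After sham surgery aged libraries held 2.22, 1.65 and 2.55 CPM, and after ICH 5.32, 4.33 and 4.96 CPM. These levels rest on 49 to 191 reads a library, and no ICH library overlapped a sham library of its age. Alox5 rose 1.85-fold in young mice (log2FC 0.89, SE 0.245, adjusted *P* = 0.0274, edgeR) and 2.27-fold in aged mice (log2FC 1.19, SE 0.246, adjusted *P* = 0.0123, edgeR). The young result was lost without young sham library 2 (adjusted *P* = 0.1), young ICH library 2 (adjusted *P* = 0.0802), in a fit to the young groups alone (adjusted *P* = 0.0711) and without the choroid plexus libraries (adjusted *P* = 0.0677, edgeR for each). The aged result was lost without aged ICH library 1 (adjusted *P* = 0.0553) and without the choroid plexus libraries (adjusted *P* = 0.105, edgeR for each).

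Alox5ap (ENSMUSG00000060063, chr5:149264767-149288153, plus strand), which presents arachidonic acid to Alox5, was at 3.07, 2.66 and 2.47 CPM in young sham libraries and at 4.76, 4.19 and 4.57 CPM in young ICH libraries. The aged sham libraries held 3.38, 2.9 and 3.11 CPM, and the aged ICH libraries 4.88, 5.52 and 5.12 CPM. The libraries of a group lay close together and no ICH library overlapped a sham library. Alox5ap rose 1.65-fold in young mice (log2FC 0.72, SE 0.132, adjusted *P* = 0.00449, edgeR) and 1.65-fold in aged mice (log2FC 0.72, SE 0.131, adjusted *P* = 0.00778, edgeR). It had the smallest standard error of the genes that rose. The call was kept when any 1 library was left out, and the aged call was lost without the 3 choroid plexus libraries (log2FC 0.72, adjusted *P* = 0.0966, edgeR). The annotated antisense gene Gm19719 overlaps Alox5ap and held 15 to 33 reads a library, against 75 to 175 reads for Alox5ap. The ratio of Alox5ap to Alox5 in FPKM was 2.68 to 4.86 in young sham, 2.18 to 3.86 in young ICH, 3.54 to 5.07 in aged sham and 2.65 to 3.68 in aged ICH libraries. On the log2 scale it differed by −0.33 between ICH and sham (exact permutation test, *P* = 0.135, adjusted *P* = 0.27) and by 0.15 between aged and young mice (exact permutation test, *P* = 0.47, adjusted *P* = 0.5).

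Ltc4s (ENSMUSG00000020377, chr11:50236461-50238616, minus strand), the leukotriene C4 synthase, did not pass the test, and 1 library decided its direction in young mice. It was at 1.69, 1.3 and 1.32 CPM in young sham libraries and at 1.65, 0.932 and 4.7 CPM in young ICH libraries. The value of 4.7 CPM belongs to young ICH library 3, the library with the most choroid plexus RNA. The other libraries rich in these markers, aged ICH libraries 1 and 2, held 1.48 and 1.93 CPM, and the third aged ICH library held 1.07 CPM. Aged sham libraries held 1.56, 1.38 and 1.08 CPM, and the aged groups overlapped. The log2FC was 0.75 in young mice (SE 0.465, adjusted *P* = 0.284) and 0.16 in aged mice (SE 0.48, adjusted *P* = 0.867, edgeR for each). Without young ICH library 3 the young log2FC was −0.14 (adjusted *P* = 0.807, edgeR), and without aged ICH library 2 the aged log2FC was −0.07 (adjusted *P* = 0.951, edgeR). The antisense gene Gm26542 overlaps Ltc4s and held 4 to 18 reads a library, with 15 reads in young ICH library 3, where Ltc4s held 149 reads.

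Alox12 (ENSMUSG00000000320, chr11:70241457-70255353, minus strand), the platelet-type lipoxygenase, had 8 to 29 reads a library. It ranged from 0.297 to 0.571 CPM in young sham, 0.29 to 0.914 CPM in young ICH, 0.419 to 0.927 CPM in aged sham and 0.271 to 0.754 CPM in aged ICH libraries, and all groups overlapped. The log2FC was 0.35 in young mice (SE 0.513, adjusted *P* = 0.681) and −0.19 in aged mice (SE 0.494, adjusted *P* = 0.845, edgeR for each). Changes of the size of these errors were not detectable at this depth. The sign in young mice turned without young ICH library 3 (log2FC −0.28), and in aged mice without aged sham library 1 (log2FC 0.23) or aged ICH library 2 (log2FC 0.12). Platelet markers are given beside Alox12, whose few reads do not allow a contrast with them. Of the 4 platelet markers tested, 3 rose in young and 2 in aged ICH mice, where 9.89% and 7.00% of all genes rose. The sum over all 8 markers of the list was 1.7 to 2.2 FPKM in young sham and 3.95 to 5.4 FPKM in young ICH libraries, and 2.41 to 3.31 FPKM in aged sham and 5.38 to 7.45 FPKM in aged ICH libraries.

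**Figure D3:**
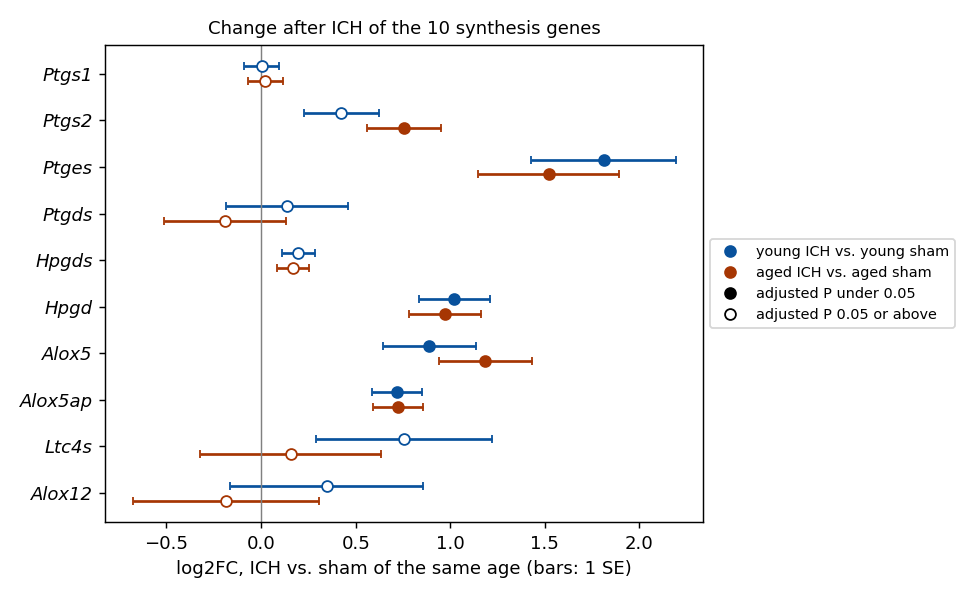
log2FC of the 10 genes in young ICH vs. young sham (blue) and aged ICH vs. aged sham (brown), with bars of 1 SE and filled points where the adjusted *P* of edgeR was under 0.05. Ptges lies furthest from 0 at both ages, at 1.81 and 1.52, and the bars of Ltc4s and Alox12 are the widest.

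The second question was whether age changed these genes. In the aged sham vs. young sham comparison 0 of the 10 genes passed the adjusted test in edgeR, where 0.102% of all genes did, and 1 of the 10 had an unadjusted *P* under 0.05, as had 12.3% of all genes. In the aged ICH vs. young ICH comparison 0 of the 10 passed, where 0.0558% of all genes did, and 3 of the 10 had an unadjusted *P* under 0.05, as had 9.54% of all genes. DESeq2 also found 0 in each. Hpgds had an unadjusted *P* under 0.05 in both comparisons, alone among the 10. Its log2FC was 0.22 (SE 0.0867, adjusted *P* = 0.332) in sham and 0.2 (SE 0.0862, adjusted *P* = 0.504) in ICH mice in edgeR. All aged libraries lay above all young libraries of the same surgery for Hpgds, as did 9.81% of all genes in sham and 6.90% in ICH mice. Ptgs2 and Alox5ap did so in ICH mice only, with log2FC of 0.49 (SE 0.194, adjusted *P* = 0.46) and 0.2 (SE 0.129, adjusted *P* = 0.659, edgeR for each). Hpgd had the opposite sign, at −0.36 in sham (SE 0.191) and −0.41 in ICH mice (SE 0.184, adjusted *P* = 0.52, edgeR), with overlapping groups.

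The interaction, the aged log2FC after ICH less the young one, was past the adjusted threshold in 0 of the 10 genes and in 0% of all genes in edgeR. An unadjusted *P* under 0.05 was found there in 0 of the 10 and in 2.82% of all genes, and DESeq2 called 0. The interaction of Ptgs2 was 0.33 (SE 0.277, adjusted *P* = 1, edgeR), so the response of aged mice was not shown to differ from that of young mice, although Ptgs2 passed the test in aged mice alone. For Alox5 it was 0.3 (SE 0.346), for Ptges −0.29 (SE 0.523), for Hpgd −0.05 (SE 0.266) and for Alox5ap 0.005 (SE 0.189). A test that is not passed does not show that both ages respond alike, given these errors. The young and the aged ICH comparison do not share libraries, but each shares libraries with the comparisons between ages.

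Averages over both ages were added after the data had been seen. For the mean ICH effect, 6 of the 10 genes rose and 0 fell in edgeR, where 16.7% of all genes rose. They were the 5 named for aged mice and Hpgds, whose mean log2FC was 0.18 (SE 0.0611, adjusted *P* = 0.0389, edgeR). Hpgds lost this call under several settings, among them no filter on low counts (adjusted *P* = 0.105), and without any 1 of 7 libraries (adjusted *P* of 0.052 to 0.092, edgeR): young sham 2, young sham 3, young ICH 3, aged sham 1, aged sham 2, aged ICH 1 and aged ICH 3. The mean log2FC of Ptgs2 was 0.59 (SE 0.139, adjusted *P* = 0.0072, edgeR), and it was 0.47 without the choroid plexus libraries (adjusted *P* = 0.0922, edgeR). For the mean effect of age, 0 of the 10 passed, where 1.27% of all genes did, and 3 had an unadjusted *P* under 0.05, as had 18.3% of all genes. The 3 were Hpgds (log2FC 0.21, adjusted *P* = 0.107), Hpgd (log2FC −0.38, adjusted *P* = 0.16) and Ptgs2 (log2FC 0.33, adjusted *P* = 0.241, edgeR for each).

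The genes around these enzymes were taken from 8 lists of the pathway. The counts per list stand beside 9.89% of all genes tested that rose and 9.23% that fell in young mice. In aged mice these shares were 7.00% and 6.15%. Upstream, Pla2g4a, the cytosolic phospholipase that frees arachidonic acid, rose at both ages, with log2FC of 0.94 (SE 0.207, adjusted *P* = 0.0101) in young and 0.92 (SE 0.207, adjusted *P* = 0.0166, edgeR) in aged mice. It was at 1.17 FPKM in young sham, 2.4 FPKM in young ICH, 1.3 FPKM in aged sham and 2.57 FPKM in aged ICH libraries on average. Of the 17 genes of phospholipases and arachidonate handling that were tested, 1 rose and 1 fell at each age. Those that fell were Daglb, a diacylglycerol lipase, in young mice (log2FC −0.36) and Pla2g7, a phospholipase of plasma lipoproteins and macrophages, in aged mice (log2FC −0.47). The most abundant others, Fads1, Mgll and Fads2, had log2FC of 0.11, 0.24 and 0.05 in young mice, with −0.04, 0.18 and −0.18 in aged mice and did not pass the test. The medians of the list were 0.11 and 0.04.

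Of the 7 other prostanoid synthases, 0 passed in young mice and 1 rose in aged mice. This was Tbxas1, the thromboxane synthase, with log2FC of 0.67 (SE 0.182, adjusted *P* = 0.0335, edgeR) in aged and 0.55 (SE 0.182, adjusted *P* = 0.0541, edgeR) in young mice. The list also holds the prostaglandin E synthases Ptges2 and Ptges3. Ptges3 was far more abundant than Ptges, at 47.7 to 61.3 FPKM in the group means. Its log2FC was 0.2 in young and 0.22 in aged mice, with adjusted *P* of 0.066 in both in edgeR. Cbr1 and Fam213b, the next most abundant, had log2FC of −0.22 and 0.11 after ICH in the young groups and −0.13 and 0.06 in the aged groups. Of the 7 genes of prostanoid transport and inactivation, 1 rose in young and 0 in aged mice. It was Ptgr1, a reductase that inactivates prostaglandins and leukotriene B4 (log2FC 0.79 and 0.53, adjusted *P* of 0.0377 and 0.16, edgeR). Zadh2, Cbr3 and Abcc4 had log2FC between −0.07 and 0.29 in young mice and between −0.17 and −0.03 in aged mice.

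The prostanoid receptors were low, with sums over the 9 receptors of 1.9 to 2.64 FPKM in the 12 libraries. Of the 8 tested, 1 rose in young mice and 0 passed in aged mice. It was Ptger2, a receptor of prostaglandin E2, with log2FC of 1.69 in young mice (SE 0.429, adjusted *P* = 0.0195) and 1.01 in aged mice (SE 0.392, adjusted *P* = 0.112, edgeR for each). Tbxa2r, Ptger3 and Ptger1 were the most abundant others and had log2FC of −0.23, −0.33 and 0.05 in young and −0.28, 0.09 and 0.15 in aged mice.

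On the leukotriene side, Ltb4r1, the high-affinity receptor of leukotriene B4 on leukocytes, had the largest change at both ages. It rose by 1.93 in young mice (SE 0.415, adjusted *P* = 0.0093) and by 1.95 in aged mice (SE 0.412, adjusted *P* = 0.0131, edgeR for each) on the log2 scale. Its mean level was 0.218 FPKM in young sham, 0.874 FPKM in young ICH, 0.232 FPKM in aged sham and 0.955 FPKM in aged ICH libraries. Of the 6 leukotriene receptors, 1 rose in young mice, and 2 rose and 1 fell in aged mice. Cysltr1, a receptor of leukotrienes C4 and D4, rose in aged mice (log2FC 0.72, adjusted *P* = 0.026) and had a log2FC of −0.05 in young mice (adjusted *P* = 0.89, edgeR for each). Gpr17, a related receptor of immature oligodendrocytes, fell in aged mice by 1.19 on the log2 scale (adjusted *P* = 0.0096) and had a log2FC of −0.4 in young mice (adjusted *P* = 0.227, edgeR for each). Gpr17 was also lower in aged ICH than in young ICH mice (log2FC −1.83, adjusted *P* = 0.0174, edgeR). In the aged sham vs. young sham comparison its log2FC was −1.04 (SE 0.221, adjusted *P* = 0.13, edgeR) and did not pass the test. Its mean level was 8.6 FPKM in young sham, 6.95 FPKM in young ICH, 4.31 FPKM in aged sham and 1.99 FPKM in aged ICH libraries. The interaction of neither receptor passed the test. Ltb4r2, Cysltr2 and Oxgr1 did not pass at either age.

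Lta4h, which makes leukotriene B4, was at 5.93 to 6.8 FPKM in the group means, above Alox5, and had log2FC of 0.1 in young and −0.03 in aged mice. Of the 8 tested genes of leukotriene hydrolysis, conjugation and inactivation, 1 rose at each age. It was Cyp4f18, which inactivates leukotriene B4 in neutrophils, with log2FC of 1.38 (SE 0.31, adjusted *P* = 0.0112) in young and 1.13 (SE 0.301, adjusted *P* = 0.031, edgeR for each) in aged mice. Mgst3 and Cyp4f14 had log2FC of −0.24 and 0.28 in young and −0.11 and −0.12 in aged mice. Among the 7 tested genes of other lipoxygenases and receptors of lipid mediators, 2 rose in young and 1 in aged mice. Cmklr1, a chemerin receptor, rose at both ages (log2FC 0.62 and 0.68, adjusted *P* of 0.039 and 0.0341), and Fpr2, a formyl peptide receptor of neutrophils and monocytes, rose in young mice (log2FC 2.06, adjusted *P* = 0.0036) and missed the threshold in aged mice (log2FC 0.97, adjusted *P* = 0.0509, edgeR for each). Alox12b, Alox8 and Fpr1 did not pass the adjusted test after ICH. By the fold criterion, 5 of these 7 genes were higher in young and 2 in aged mice, beside 8.66% and 7.24% of all genes. Of the 5 tested genes of the cytochrome P450 branch, 1 rose in young mice (Cyp2j9, log2FC 0.28, adjusted *P* = 0.041, edgeR) and 0 passed in aged mice, and Ephx1, Ephx2 and Cyp2j6 had log2FC of 0.04 to 0.19 in young mice and −0.2 to −0.09 in aged mice.

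Without the 3 choroid plexus libraries, most calls on the pathway genes were lost while their signs stayed. Of the 9 genes called in young mice, 2 were still called, Fpr2 (log2FC 2, adjusted *P* = 0.0205) and Pla2g4a (log2FC 0.73, adjusted *P* = 0.0481, edgeR for each). Of the 8 called in aged mice, 0 were still called in edgeR, 7 had an unadjusted *P* under 0.05 and all 8 kept their sign, with adjusted *P* of 0.0561 to 0.301. Ltb4r1 had log2FC of 1.72 in young mice (adjusted *P* = 0.0528) and 2.27 in aged mice (adjusted *P* = 0.0649), and Gpr17 had −1.41 in aged mice (adjusted *P* = 0.0561, edgeR for each). The difference of Gpr17 between aged and young ICH mice was −2.08 there and did not pass (adjusted *P* = 0.223, edgeR).

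**Figure D4:**
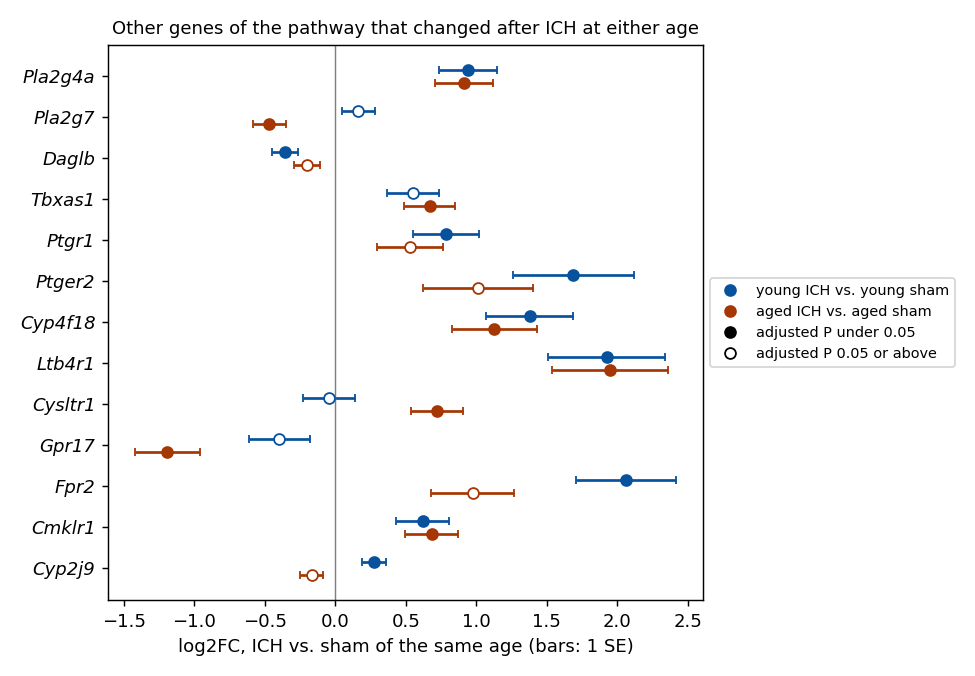
log2FC after ICH in young (blue) and aged (brown) mice of the pathway genes, other than the 10, that passed the adjusted test at either age, with bars of 1 SE and filled points where they passed. Ltb4r1 lies at 1.93 and 1.95, and Gpr17 is the furthest below 0, at −1.19 in aged mice.

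Many markers of blood-borne and perivascular cells rose in the same comparisons as Ptges, Hpgd, Alox5 and Alox5ap. Of all genes tested, 9.89% rose in young and 7.00% in aged mice. Of the 9 neutrophil markers tested, 7 rose in young and 6 in aged ICH mice, and the list summed to 3.87 to 5.46 FPKM in young sham, 11.8 to 28.6 FPKM in young ICH, 7.24 to 18.8 FPKM in aged sham and 32.5 to 52 FPKM in aged ICH libraries. S100a9, S100a8 and Csf3r were its most abundant genes, while Ly6g had 13 reads in all libraries together. Of the 10 infiltrating monocyte markers, 6 rose in young and 5 in aged mice, with sums of 21.4 to 25.5 FPKM in young sham, 58 to 87.4 FPKM in young ICH, 24.2 to 58.4 FPKM in aged sham and 85.6 to 94.7 FPKM in aged ICH libraries. Lyz2, Fn1 and Chil3 led this list. Of the 8 perivascular macrophage markers, 4 rose in young and 2 in aged mice. By the fold criterion, 5 were higher in young mice, and 3 were higher and 1 lower in aged mice. Their sums were 3.62 to 6.76 FPKM in the sham and 10.3 to 13.8 FPKM in the ICH libraries. Of the 8 endothelial markers, 5 rose in young and 4 in aged mice, with Cldn5 among them (log2FC 0.64 and 0.47). The sums ran from 51.3 to 63.1 FPKM in sham and from 67.9 to 84.3 FPKM in ICH libraries. Mast cells, another known source of leukotriene C4 and prostaglandin D2, had 0 of 7 markers past the filter on low counts, and Tpsab1, Cma1 and Mrgprb1 had 0 reads in every library. Of 8 astrocyte markers, 4 rose in young mice, and 2 rose and 1 fell in aged mice. Of 5 red blood cell markers tested, 3 rose in young and 0 in aged mice. Of 10 striatal projection neuron markers, 1 fell at each age, and their median log2FC was −0.95 in young and −1.11 in aged mice. They summed to 480 to 823 FPKM in young sham, 146 to 540 FPKM in young ICH and 426 to 763 FPKM in aged sham libraries. In aged ICH libraries the sums were 111.1 to 610 FPKM, lowest in library 1. Of 10 choroid plexus markers, 0 passed at either age in edgeR, although their median log2FC was 1.87 in young and 2.69 in aged mice. By the fold criterion 0 of them were higher in young and 4 in aged mice. Without the 3 choroid plexus libraries, 32 of the 41 marker calls in young mice were kept in edgeR, 7 of them of neutrophil markers. All 41 kept their sign, and 3 calls were new. The new ones were Sostdc1 of the choroid plexus (log2FC −2.97, against 1.5 with all libraries), Ugt8a of oligodendrocytes (−0.74) and Pde10a of projection neurons (−1.52). In aged mice, where 1 ICH library was left, all 31 markers called before kept their sign. The log2FC of the red blood cell marker Alas2 was 3.71 there, against 2.28 with all libraries. The part of the other cell types in the results for the 10 genes was not tested.

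**Figure D5:**
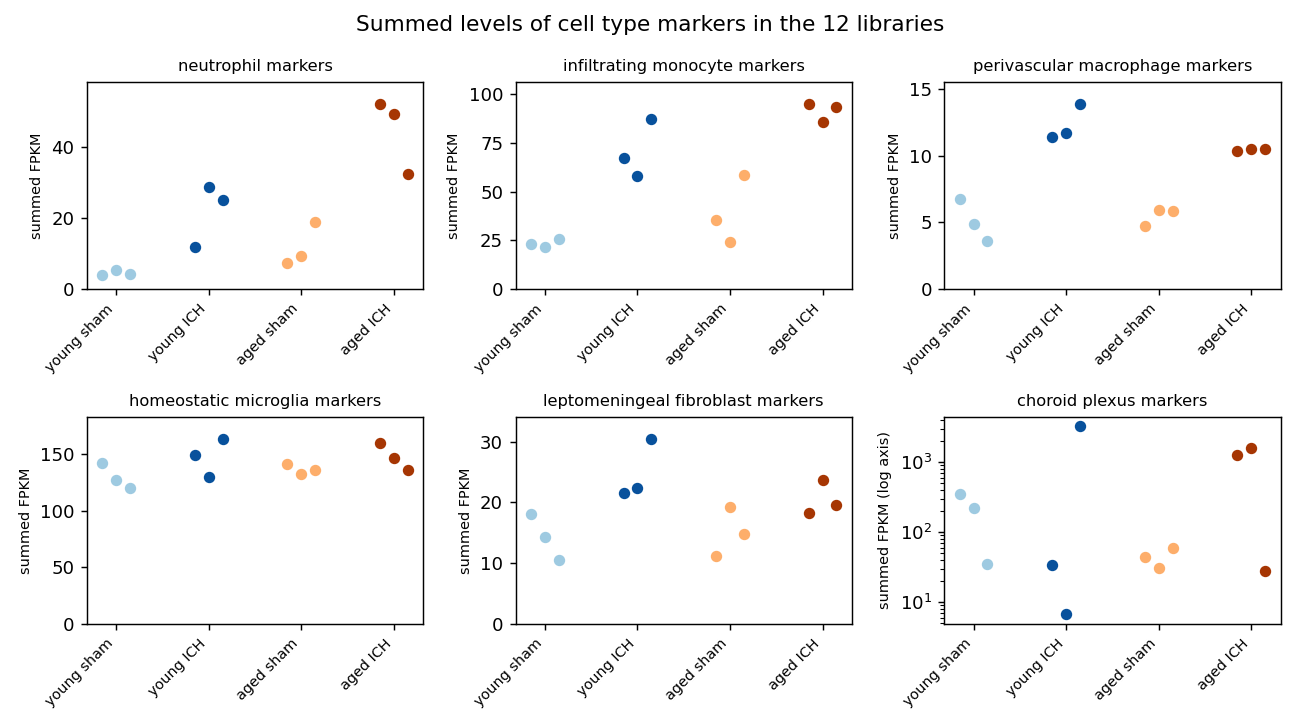
Summed FPKM of the markers of 6 cell types in the 12 libraries, on linear axes from 0 and on a log axis for the choroid plexus. Neutrophil, infiltrating monocyte and perivascular macrophage markers are higher in ICH libraries of each age, and 3 ICH libraries stand at 1247 FPKM or more in choroid plexus markers.

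The genes whose log2 CPM followed each of the 10 most closely over the 12 libraries were looked up among the other genes with a mean of at least 1 CPM, 16823 for Alox12 and 16822 for each of the others. The libraries form 4 groups, so these correlations hold the difference between groups as well as the spread within them, and they are given as a description. Ptges was followed by Stk40 (Pearson's r = 0.981), with 2 loci without a symbol beside it. Alox5ap was followed by Emp3, Ccl6 and Txnrd1 (r of 0.964 to 0.966). Alox5 was followed by Ftsj3, Serpina3m and Exosc2 (r of 0.945 to 0.966), and Hpgd by Pabpc1, Gm12868 and Wdr4 (r of 0.943 to 0.976). Ptgs2 was followed by Sh2b3, Pprc1 and Pigu (r of 0.934 to 0.945). Ptgds was followed by Serpinf1, B930059L03Rik and Lama1 (r of 0.898 to 0.961). Hpgds was followed by 4930503L19Rik, Car5b and Stk38 (r of 0.962 to 0.974), Ltc4s by Cd59a, Nucb1 and Prps2 (r of 0.933 to 0.943) and Ptgs1 by Gm44053, Tlr12 and AI849053 (r of 0.838 to 0.881). Alox12, with the fewest reads, had the weakest neighbours, Gm16153, Rps3a3 and 2610028D06Rik (r of 0.801 to 0.811).

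After the mean of each group was taken away, the nearest genes were mostly others. Pabpc1 stayed among the 3 nearest of Hpgd (r = 0.912) and the same 2 loci without a symbol among those of Ptges, whose nearest gene was Ctla2a (r = 0.947). Within groups, Alox5 moved most closely with Gm43508, Cbfb and Tnfaip3 (r of 0.919 to 0.973). Alox5ap moved with Actr2, B230206L02Rik and Chchd5 (r of 0.908 to 0.917), Ptgs2 with Plcd1, Txlnb and Gm12758 (r of 0.93 to 0.936), and Ptgs1 with Tmem127, Slc25a37 and Atxn7l1 (r of 0.919 to 0.939). Ptgds moved with Mapk8ip1, Mro and Slc2a4 (r of 0.969 to 0.979), Hpgds with Gm13680, Kdelc1 and Ano6 (r of 0.942 to 0.961), Ltc4s with Ddost, Pcdhgb8 and Ago4 (r of 0.964 to 0.974), and Alox12 with Zmym5, Atp2b3 and Exosc10 (r of 0.909 to 0.941). Each of these values comes from 12 libraries after the group means were taken away, so fewer than 12 of the deviations are independent. Each is also among the 3 highest of all genes compared.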

How the data were processed

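The authors aligned paired-end reads of the 12 libraries to GRCm38.p6 with HISAT2 and counted them per gene with featureCounts. They deposited raw counts and FPKM for 54833 genes in 1 table, and all sample columns were used. The sources name no strand setting, and 6 of the 10 genes overlap another annotated gene (GENCODE vM21). Counts were fitted with edgeR 4.0.16 (limma 3.58.1, R 4.3.3), with TMM normalization (factors 0.954 to 1.04), all 12 libraries in 4 groups, and filterByExpr (minimum count 10), which left 21495 genes. The quasi-likelihood test was adjusted by Benjamini-Hochberg over all genes tested, with a threshold of 0.05. The SE of a log2FC is its absolute value divided by the square root of F. The code was tested on simulated data. Log2 ratios of FPKM, with no pseudocount, were compared by exact permutation tests over 400 arrangements. Alternatives were RLE and library-size scaling, no count filter, DESeq2 1.42.0, a replicate block, fits to the groups compared, the fold criterion, leaving out each library, and a pseudocount of 0.1 FPKM for the ratios. Leaving out 3 libraries and the averages over ages were added after seeing the data. The 10 genes, the pathway and marker lists and the rules were chosen with earlier results of these data known. The named genes are the 10, pathway genes that passed in either ICH comparison with up to 3 abundant others per list, the leading markers, and the 3 nearest genes by correlation.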

Additional observations from a re-analysis of the deposited data

How the results depend on the processing

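Of 9 calls on the 10 genes in the 2 ICH comparisons, none changed direction in 117 alternatives, 98 kept the call and 19 lost it. The lost calls were those of Ptges, Ptgs2, Hpgd, Alox5 and Alox5ap in aged and of Alox5 in young mice. The 5 calls in aged mice fell to between 1 and 5 when 1 library was left out and to 0 without the 3 choroid plexus libraries, which leaves 1 aged ICH library. Labels share replicate numbers, and of 18 correlations between same-numbered libraries 6 were over 0.1 (−0.57 to 0.32). Those between differently numbered libraries ran from −0.52 to 0.49. A pairing by number was thus not shown, and these values cannot exclude one. With a replicate block, 4 genes were called in young and 5 in aged mice, as without it, and 5 rather than 6 for the mean ICH effect. Of 41 results without a call, 22 changed sign under some setting and the cause was not tested. For Ptgs1 in young mice the log2FC was −0.0067 with RLE scaling and −0.0079 in DESeq2, and with library sizes only the Alox5ap interaction was −0.014. Without the choroid plexus libraries, Ltc4s was −0.15 in young and −0.31 in aged mice, Alox12 −0.28 and 0.301, and the interactions −0.019 (Ptgs1), 0.18 (Ptges), 0.055 (Hpgds) and 0.58 (Alox12). With 1 library left out, the young log2FC ran from −0.059 to 0.064 (Ptgs1), −0.019 to 0.41 (Ptgds), −0.14 to 1.14 (Ltc4s) and −0.28 to 0.65 (Alox12), and the aged from −0.037 to 0.11 (Ptgs1), −0.53 to 0.23 (Ptgds), −0.066 to 0.35 (Ltc4s) and −0.496 to 0.23 (Alox12). Between sham groups they ran from −0.074 to 0.91 (Ptges), −0.54 to 0.15 (Ptgds), −0.33 to 0.035 (Alox5) and −0.23 to 0.0302 (Ltc4s), and between ICH groups from −1.09 to 0.19 (Ltc4s) and −0.29 to 0.65 (Alox12). The interactions ran from −0.042 to 0.11 (Ptgs1), −0.61 to 0.37 (Ptges), −0.66 to 0.092 (Ptgds), −0.19 to 0.14 (Hpgd), −0.063 to 0.037 (Hpgds), −0.087 to 0.072 (Alox5ap), −0.98 to 0.301 (Ltc4s) and −0.84 to 0.0995 (Alox12). Alox12 had the fewest reads of the 10 genes, 8 to 29 a library.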
